A study of Mus musculus with 12 samples.

Results

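The 10 genes described here are a group of textbook platelet and megakaryocyte genes: Pf4, Ppbp, Itga2b, Gp9, Gp1ba, Gp1bb, Gp5, Gp6, Clec1b and Treml1. They were picked by gene symbol as known genes of the lineage, at a time when earlier results of these data were known, and all 10 were found among the 32774 genes of the deposited expression table. RNA had been sequenced from adipose vascular anomalies, vessel-rich lesions that grew in fat, and from normal adipose tissue of C57BL/6 mice. The anomaly mice were of the genotype VEC-Cre;SB Transposase; onc3. In these mice a Cre recombinase under the promoter of the VE-cadherin gene, which is active in endothelium, acts together with a Sleeping Beauty transposase and an onc3 transposon. The normal mice carried the same transposase and the same transposon but no Cre, so the groups share 2 of these 3 parts. The sources used here give no ages. The anomalies gave 8 libraries from 7 animals, because a leg piece and an arm piece both came from animal M566, and their log2 values were averaged. Titles call the tissue subQ in 5 anomaly animals (M580, M566, F578, M610 and M605) and fat in the other 2 (18f and M278). The 4 normal libraries (F539, M5, M602 and M2) came from 4 animals and are all titled fat.

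Platelets are cell fragments shed by megakaryocytes, and they carry megakaryocyte RNA with them. At a damaged vessel wall the GPIb-IX-V complex tethers platelets to von Willebrand factor, GPVI and CLEC-2 signal on contact with collagen and podoplanin, and the integrin alphaIIb-beta3 then binds fibrinogen. Activated platelets release alpha granules that hold the chemokines PF4 and PPBP, and platelet trapping is a known feature of some vascular lesions. Several of these genes are not exclusive to the lineage: in mice Pf4 RNA is also found in some macrophages, Clec1b in some myeloid cells, and Itga2b in early blood progenitors and mast cells.

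The values are log2 CPM (read counts scaled for library size and composition) as the authors deposited them. Recovered read totals lay between 10337258 and 33980694 in 11 libraries, where 3 reads were worth 0.0914 to 0.267 CPM. The library of M580 stood apart. Its values sum to 953994 steps, 1 step is worth 0.742 CPM, and 9367 genes lie at exactly 1 step against 1316 at 2 steps, a ratio of 7.12 where the other libraries had 1.92 to 2.28. Its values for genes of a few steps are therefore uncertain, and values without M580 are given where a call or a count of calls changed without it. The labelled tissue was checked against 10 adipocyte markers, which summed to 34319 to 88430 CPM in the normal libraries and to 669 to 26061 CPM in the anomaly libraries, none of them at 0 in all libraries. Over all genes 1985 of 12955 were called higher and 3001 lower (limma, adjusted p under 0.05). With scaling by library totals alone this split turned to 4618 higher and 1583 lower of 13122, and the median log2 fold change of all genes moved from -0.10 to 0.33.

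All 10 genes matched a promoter window of RefSeq (build GRCm38.p6), which runs from 250 bases before to 50 bases after the start of the gene. Each window was searched on both strands for AGATAA, a core of the GATA motif, and AGGAAG, a core of the ETS motif. GATA1 and the ETS factor FLI1 are the classical activators of megakaryocyte genes. AGATAA or its reverse complement TTATCT was present in 4 of the 10 windows and in 11.2% of 32851 windows of the same length. AGGAAG or its reverse complement CTTCCT was present in 6 of the 10 windows and in 35.4% of all windows. The 150 bases from 100 before the start to 50 after it are shown for the 4 subunits of the GPIb-IX-V complex, whose values are compared below, and for Pf4 and Clec1b, which hold a GATA core just after the start. Capitals mark the GATA and ETS cores, and each sequence is written on the strand of its gene.
Gp1ba (chr11:70639022-70639171, plus strand): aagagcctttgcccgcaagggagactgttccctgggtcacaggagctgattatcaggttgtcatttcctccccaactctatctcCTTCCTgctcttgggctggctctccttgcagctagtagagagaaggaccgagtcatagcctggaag
Gp1bb (chr16:18622354-18622503, minus strand): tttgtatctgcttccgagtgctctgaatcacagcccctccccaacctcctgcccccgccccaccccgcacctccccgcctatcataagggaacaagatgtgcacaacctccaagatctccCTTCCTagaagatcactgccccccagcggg
Gp9 (chr6:87777970-87778119, plus strand): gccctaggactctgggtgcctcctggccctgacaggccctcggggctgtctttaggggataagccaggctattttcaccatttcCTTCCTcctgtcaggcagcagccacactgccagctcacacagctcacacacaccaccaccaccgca
Gp5 (chr16:30310732-30310881, minus strand): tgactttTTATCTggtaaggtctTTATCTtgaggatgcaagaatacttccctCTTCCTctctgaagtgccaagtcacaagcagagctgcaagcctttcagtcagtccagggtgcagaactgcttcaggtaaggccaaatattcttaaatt
Pf4 (chr5:90772335-90772484, plus strand): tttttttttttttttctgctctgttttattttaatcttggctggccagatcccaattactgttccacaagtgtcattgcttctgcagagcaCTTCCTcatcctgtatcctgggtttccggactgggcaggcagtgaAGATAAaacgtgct
Clec1b (chr6:129397197-129397346, plus strand): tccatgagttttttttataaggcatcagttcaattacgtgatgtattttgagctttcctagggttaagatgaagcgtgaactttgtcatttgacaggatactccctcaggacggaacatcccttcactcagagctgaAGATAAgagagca

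Positions are counted with the first transcribed base in RefSeq as 1 and the base before it as -1. Gp1ba and Gp9 held CTTCCT at the same position, -16, and Pf4 held it at -9. Gp5 held TTATCT at -93 and -77 with CTTCCT at -48, and Gp1bb held CTTCCT at 21, inside the transcribed part. Pf4 held AGATAA at 37 and Clec1b at 38. Of the genes not printed, Gp6 held AGATAA at -144, Itga2b held AGGAAG at -125 and -43, and Ppbp and Treml1 held neither core in this window. The gene coordinates given below are from GENCODE, where Itga2b starts further upstream than in RefSeq, so both of its cores lie inside that gene. A match describes the letters of the window and is not evidence of binding.

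The first comparison asked how the 10 genes differ between anomalies and normal adipose tissue. The mean was higher in the anomalies for all 10 genes, by log2 differences from 0.28 for Gp1ba to 2.48 for Clec1b. The median log2 difference was 0.22 over all 32774 genes and -0.10 over the 12955 tested. The share of all genes with a higher mean was not counted, so 10 of 10 gives no support to the group. A gene was tested with limma only if its mean over the 11 animals reached 1 log2 CPM, which left Pf4, Ppbp, Itga2b, Gp1bb and Clec1b. Clec1b, Gp1bb and Ppbp were higher in the anomalies (limma, Benjamini-Hochberg adjusted p under 0.05), so 3 of 5 tested genes rose and 0 fell. Over all 12955 genes tested 15.3% were called higher and 23.2% lower. Low genes that pass the filter can do so through their anomaly values, so this count gives no support to the group. When all 32774 genes were fitted with no filter, the same 3 of the 10 genes were called higher, against 6.59% of all genes called higher and 8.43% called lower. Without M580, Gp1bb fell under the filter, and Clec1b and Ppbp were called of 4 tested. In the fit with no filter Clec1b and Gp1bb were then called and Ppbp was not (limma adjusted p = 0.0745). With limma-voom Clec1b and Gp1bb were called, and Ppbp was not. In 2 of the 10 genes, Gp1bb and Gp9, every anomaly animal lay above every normal animal, which held for 8.3% of the genes tested and 4.44% of all genes. In whole tissue, more cells of a type and more RNA per cell cannot be told apart.

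**Figure D1:**
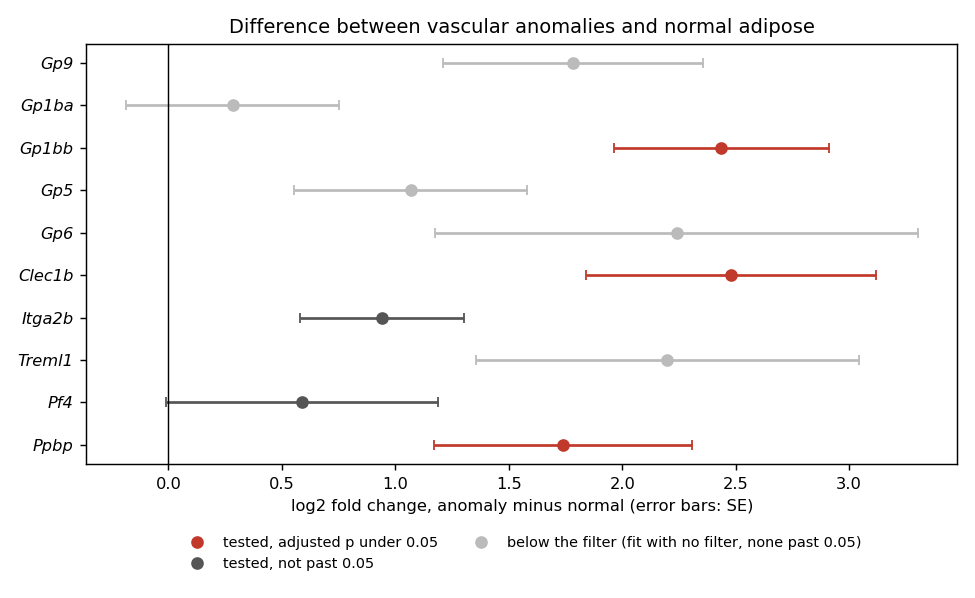
Difference in mean log2 CPM between 7 anomaly and 4 normal adipose animals for each gene, with the SE of limma as error bars. Red marks the 3 genes with an adjusted p under 0.05 (Gp1bb, Clec1b and Ppbp), dark grey the tested genes Itga2b and Pf4, and light grey the 5 genes below the filter, whose values come from the fit with no filter.

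Among the 4 subunits of the GPIb-IX-V complex only Gp1bb reached the filter, and it rose. Gp9, Gp5 and Gp1ba were under the filter and were not called in the fit with no filter. The log2 differences ran from 0.28 for Gp1ba to 2.44 for Gp1bb. Whether the subunits differ from each other was not tested. Gp1bb encodes the beta chain of GPIb, which is joined to the alpha chain by a disulfide bond (chromosome 16, 18620317 to 18622403, minus strand, GRCm38). Its level was 3.03 log2 CPM in M580, 2.89 in the leg and 2.21 in the arm piece of M566, 2.36 in F578, 2.17 in M610, 2.61 in M605, 0.54 in 18f and 0.93 in M278. In the normal libraries Gp1bb was -0.67 in F539, -0.46 in M5, -0.12 in M602 and -0.41 in M2. The groups did not overlap, and the fat-titled anomalies were the lowest of the anomalies. Gp1bb was 5.41-fold higher in the anomalies (2.03 ± 0.93 against -0.41 ± 0.23 log2 CPM, mean ± SD, n = 7 and 4 animals), a log2 fold change of 2.44 ± 0.47 (SE) with a limma adjusted p of 0.00327. The exact permutation test gave a two-sided p of 0.00606, the smallest that its 330 regroupings of the animals allow. Without M580 the log2 fold change was 2.27 with a limma adjusted p of 0.00902, in the fit with no filter because Gp1bb then fell under the filter.

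Gp1bb shares 1902 exonic bases, 91.1% of its exons, with the septin gene Sept5 on the same strand, and 41.5% with the annotated gene Gm49601. The deposited column names are those of the reads per gene counted by the aligner STAR. The sources used here do not state which annotation was counted or how reads in shared exons were handled, so the level of Gp1bb is uncertain. Sept5 was at 4.73 ± 1.00 log2 CPM in the anomalies and 3.73 ± 0.41 in normal adipose (mean ± SD, n = 7 and 4 animals), a log2 difference of 1.00 ± 0.49 (SE) with a limma adjusted p of 0.126. By library Sept5 was at 4.43 in M580, 6.17 and 6.00 in the leg and arm of M566, 5.34 in F578, 4.86 in M610 and 5.45 in M605, against 3.57 in 18f and 3.37 in M278. The normal libraries lay between 3.39 and 4.20. Sept5, like Gp1bb, was thus higher in all subQ-titled anomaly libraries than in all others, while the fat-titled anomalies lay above the normal libraries for Gp1bb but not for Sept5, where 18f lay among them and M278 just below the lowest. The part of Sept5 reads in the values of Gp1bb was not tested.

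**Figure D2:**
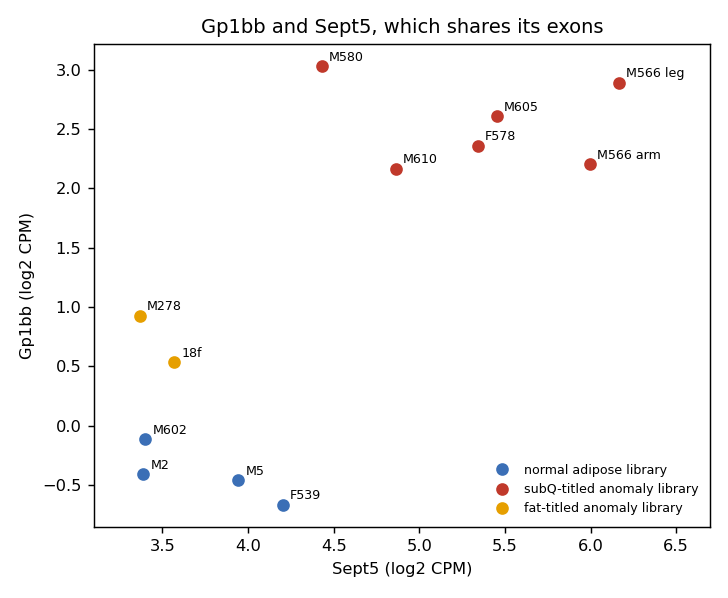
Level of Gp1bb (vertical axis, log2 CPM) against the level of Sept5 (horizontal axis, log2 CPM), which shares 91.1% of the exonic bases of Gp1bb, with 1 point per library. The subQ-titled anomalies lie at the upper right, with Sept5 from 4.43 to 6.17 and Gp1bb from 2.17 to 3.03, and the 2 fat-titled anomalies lie above the normal libraries at a like level of Sept5.

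Gp9 encodes the small subunit GPIX that holds the complex together at the surface (chromosome 6, 87778072 to 87779768, plus strand). It was measured with 6 to 84 reads a library, and 6 steps in M580. Its level was 2.16 log2 CPM in M580, -0.85 and 0.15 in the leg and arm of M566, 0.66 in F578, 1.87 in M610, -0.27 in M605, 0.15 in 18f and -0.12 in M278, against -0.48 in F539, -2.09 in M5, -1.30 in M602 and -0.93 in M2. Every anomaly animal lay above every normal animal, but only after the pieces of M566 were averaged, since the leg piece lay below F539. The log2 difference was 1.78 ± 0.57 (SE), or 3.44-fold, and the exact permutation test gave p = 0.00606. In the limma fit with no filter the adjusted p was 0.0530, just above the threshold, and without M580 the exact permutation p was 0.00952.

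Gp1ba, the alpha chain that binds von Willebrand factor (chromosome 11, 70639122 to 70642036, plus strand), overlapped between the groups. It was at 1.57 log2 CPM in M580, 0.23 and 1.19 in the pieces of M566, 1.00 in F578, 0.73 in M610, 0.64 in M605, -0.26 in 18f and -0.75 in M278, against 0.76, 0.24, -0.63 and 0.58 in F539, M5, M602 and M2. Only M580 and F578 lay above all normal animals, and M278 lay below all of them. The log2 difference was 0.28 ± 0.47 (SE, exact permutation p = 0.552), and its sign was not stable: it was -0.01 without M602 and -0.74 with the fat-titled anomalies alone. Gp5, the subunit that thrombin cleaves (chromosome 16, 30307685 to 30310779, minus strand), was counted with 2 to 38 reads in the anomalies and 4 to 13 in the normal libraries. It was at 0.58 log2 CPM in M580, -1.83 and -0.43 in the pieces of M566, -0.23 in F578, 0.73 in M610, -0.12 in M605, -1.41 in 18f and -0.92 in M278, against -1.46, -0.996, -2.02 and -1.22. Gp5 lay above all normal animals in 5 of 7 anomaly animals, with a log2 difference of 1.07 ± 0.51 (SE), an exact permutation p of 0.0424 and an adjusted p of 0.201 in the limma fit with no filter. Without M580, where Gp5 stands at 2 steps, the exact permutation p was 0.0667.

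**Figure D3:**
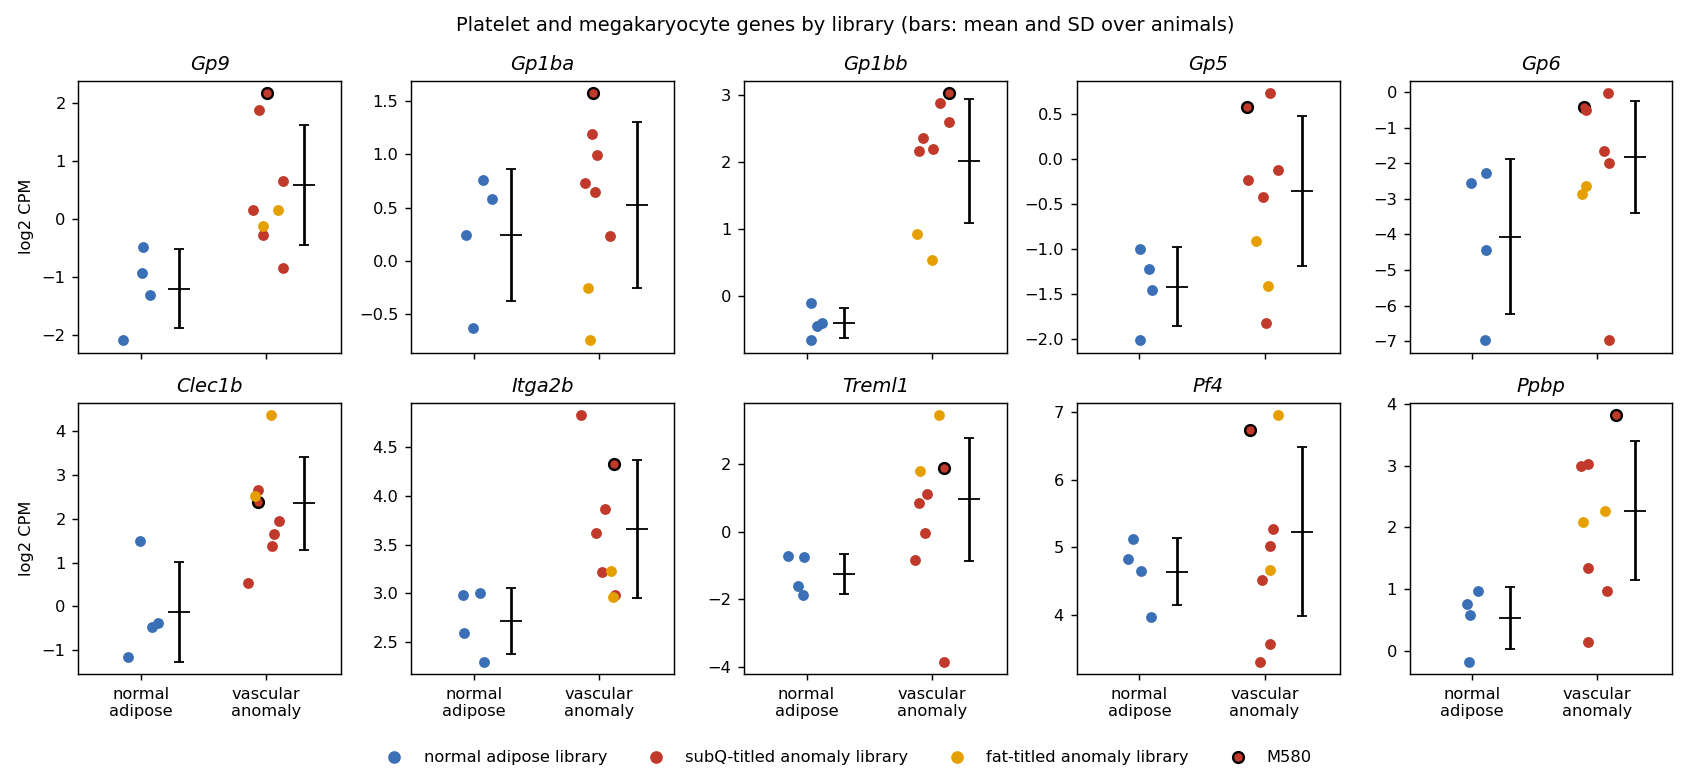
Level of each of the 10 genes (vertical axes, log2 CPM, each with its own range) in 4 normal adipose libraries (blue), 6 subQ-titled anomaly libraries (red) and 2 fat-titled anomaly libraries (orange), with the library of M580 ringed in black and bars for the mean and SD over animals. The groups are separate for Gp1bb and overlap for Gp1ba and Pf4, the fat-titled libraries are the lowest anomalies in Gp1bb and Gp1ba, and a fat-titled library is the highest in Treml1, Clec1b and Pf4.

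Of the receptors that signal through the kinase Syk, Clec1b rose and Gp6 was too scarce to call. Clec1b encodes CLEC-2, the receptor for podoplanin (chromosome 6, 129397297 to 129409335, plus strand). Its level was 2.38 log2 CPM in M580, 0.53 and 1.37 in the leg and arm of M566, 1.65 in F578, 1.94 in M610, 2.64 in M605, 2.52 in 18f and 4.36 in M278, against -0.48 in F539, -0.38 in M5, -1.17 in M602 and 1.50 in M2. The anomaly animals other than M566 lay above all normal animals, and M2 was high among the normal animals. Clec1b was 5.58-fold higher (2.35 ± 1.06 against -0.13 ± 1.14 log2 CPM, mean ± SD, n = 7 and 4 animals), a log2 fold change of 2.48 ± 0.64 (SE) with a limma adjusted p of 0.0118 and an exact permutation p of 0.0121. The highest library, M278, held 315 reads of Clec1b, and without M278 the log2 fold change was 2.15 (limma adjusted p = 0.0134).

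The dendritic cell gene Clec9a lies on the same strand and shares 184 exonic bases, 3.61% of the exons of Clec1b. Clec9a was at 3.01 ± 0.79 log2 CPM in the anomalies and 1.83 ± 0.44 in normal adipose (n = 7 and 4 animals, limma adjusted p = 0.0427). Of 8 dendritic cell markers 7 were tested, 3 rose and 0 fell, and none was at 0 in all libraries. Without M580 2 rose. Their summed level ran from 332 to 5325 CPM in the anomaly libraries, highest in M278, and from 840 to 1457 CPM in the normal libraries. M278 was thus the highest library for Clec1b and for these markers, and the part of myeloid cells in the level of Clec1b was not tested.

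Gp6 encodes the collagen receptor GPVI, which signals through the Fc receptor gamma chain (chromosome 7, 4363965 to 4397744, minus strand). It had 0 reads in the leg piece of M566 and in F539, 1 step in M580 and 1 read in M5. The arm piece of M566 had 5 reads, F578 16, M610 16, M605 8, 18f 5 and M278 2, and M602 and M2 had 5 each. Only F578 and M610 were above 10 reads, and at these counts a difference was not detectable: the exact permutation p was 0.0970, and 0.152 without M580.

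Itga2b and Treml1 encode the other surface proteins of the group, the alphaIIb chain of the fibrinogen receptor and the alpha granule membrane receptor TLT-1. Itga2b (chromosome 11, 102453297 to 102470122, minus strand) was at 4.33 log2 CPM in M580, 3.62 and 3.22 in the leg and arm of M566, 4.83 in F578, 3.86 in M610, 2.98 in M605, 3.23 in 18f and 2.96 in M278, against 3.002, 2.59, 2.29 and 2.98 in F539, M5, M602 and M2. M605 and M278 lay within the normal range and the other 5 anomaly animals above it. The log2 difference was 0.94 ± 0.36 (SE), or 1.92-fold, with a limma adjusted p of 0.0603 and an exact permutation p of 0.0303, so Itga2b did not pass the test. With scaling by library totals it did (log2 1.37, limma adjusted p = 0.0176).

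Of the cells other than platelets that hold Itga2b RNA, 8 of 10 markers of stem and progenitor cells were tested, of which Flt3 and Spi1 rose and Hlf fell. With library totals 4 rose and 1 fell. The progenitor markers summed to 345 to 1472 CPM in the anomaly libraries and 272 to 448 CPM in the normal ones, with F578 highest both for them and for Itga2b. Of 10 mast cell markers 7 were tested, and Hdc and Hpgds rose. Without M580 1 mast cell marker rose. The mast cell markers summed to 57.2 to 300.0 CPM in the anomalies and 43.9 to 365 CPM in normal adipose, and no marker of either list was at 0 in all libraries. The part of these cells in the level of Itga2b was not tested.

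Treml1 (chromosome 17, 48359916 to 48367176, plus strand) was at 1.90 log2 CPM in M580, -0.85 and -3.85 in the leg and arm of M566, 0.86 in F578, 1.13 in M610, -0.03 in M605, 3.45 in 18f and 1.79 in M278, against -1.86, -0.70, -1.62 and -0.76 in F539, M5, M602 and M2. In 6 of 7 anomaly animals it lay above all normal animals, and in M566, whose arm piece held 1 read, it lay below all of them. The log2 difference was 2.20 ± 0.84 (SE), with an adjusted p of 0.105 in the limma fit with no filter and an exact permutation p of 0.0485. Without M566 the log2 difference was 2.75 and the limma adjusted p 0.0102, and without M580 the exact permutation p was 0.0762. Animal 18f held 355 reads of Treml1, where no other library had more than 53.

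The 2 granule chemokines lie next to each other on chromosome 5, plus strand, Ppbp at 90768518 to 90770063 and Pf4 at 90772435 to 90773383. Ppbp, the source of the neutrophil-attracting chemokine CXCL7, was at 3.82 log2 CPM in M580, 0.14 and 1.34 in the leg and arm of M566, 2.99 in F578, 3.03 in M610, 0.97 in M605, 2.26 in 18f and 2.09 in M278. In the normal libraries Ppbp was at 0.76 in F539, -0.18 in M5, 0.97 in M602 and 0.58 in M2. M566 and M605 lay within the normal range and the other 5 anomaly animals above it. Ppbp was 3.34-fold higher in the anomalies (2.27 ± 1.12 against 0.53 ± 0.50 log2 CPM, mean ± SD, n = 7 and 4 animals), a log2 fold change of 1.74 ± 0.57 (SE) with a limma adjusted p of 0.0324 and an exact permutation p of 0.0303. The call was near its limit: leaving out any of F578, M610, M5, M602 or M2 moved the limma adjusted p to between 0.0572 and 0.0958, and limma-voom gave 0.0793.

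Pf4, the source of the heparin-binding chemokine CXCL4, was by far the most abundant of the 10 genes and did not pass the test. It was at 6.74 log2 CPM in M580, 3.57 and 3.31 in the leg and arm of M566, 5.28 in F578, 5.03 in M610, 4.51 in M605, 6.96 in 18f and 4.66 in M278, against 3.97, 5.13, 4.65 and 4.82 in F539, M5, M602 and M2. M580 and 18f stood well above all normal animals, F578 just above them, and M566 below all of them. The log2 difference was 0.59 ± 0.60 (SE), with a limma adjusted p of 0.457 and an exact permutation p of 0.436. The difference for Pf4 was smaller than that for its neighbour Ppbp in 6 of the 7 anomaly animals when each was set against the normal mean, the exception being 18f.

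Macrophages are the other known source of Pf4 RNA in tissue. Of 12 macrophage markers, all tested, 4 rose (Ms4a7, C1qa, C1qb and C1qc) and 0 fell, and none was at 0 in all libraries. With library totals 7 rose. Their summed level was 5029 CPM in 18f, 3585 in M278, 2898 in F578, 2631 in M580, 1824 in M610 and 1767 in M605, and 694 and 575 CPM in the leg and arm of M566, against 646 to 1392 CPM in the normal libraries. The highest Pf4 and the highest macrophage level were both in 18f, and the lowest of both among the anomalies were in the pieces of M566. M278, which was high in macrophage markers, was within the normal range of Pf4. The part of macrophages in the level of Pf4 was not tested.

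Set per length of exon, in CPM per kilobase, Pf4 stood above every other gene of the group in both groups of tissue. In the anomalies the median over the 8 libraries was 40.2 for Pf4 (13.7 to 172), 4.17 for Ppbp, 2.33 for Gp1bb, 1.99 for Itga2b, 1.42 for Treml1, 1.25 for Gp9, 0.885 for Clec1b, 0.590 for Gp1ba, 0.360 for Gp5 and 0.0467 for Gp6. In the 4 normal libraries it was 37.1 for Pf4 (21.7 to 48.5), 1.47 for Ppbp, 1.28 for Itga2b, 0.520 for Gp9, 0.491 for Gp1ba, 0.351 for Gp1bb, 0.322 for Treml1, 0.177 for Gp5, 0.144 for Clec1b and 0.017 for Gp6. The ranges of Pf4 did not overlap those of any other gene in either group. Between the other neighbours in the order the ranges overlapped, apart from Itga2b above Gp9 and Clec1b above Gp6 in the normal libraries. Gp1bb was in place 3 in the anomalies and in place 6 in normal adipose. Its length of 2087 bases includes the 1902 shared with Sept5, so its level per kilobase and its places are uncertain.

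The 10 genes together summed to 33.4 to 168 CPM in the anomaly libraries and 29.7 to 45.9 CPM in the normal libraries, so these ranges overlapped. Pf4 made up 29.6% to 78.1% of the sum in the anomalies and 52.7% to 76.2% in normal adipose. Without Pf4 the remaining genes summed to 23.5 to 60.9 CPM in the anomalies and 9.99 to 16.1 CPM in normal adipose, and these ranges did not overlap. The second sum leaves out a gene that did not pass the test and keeps Gp1bb, whose level is uncertain. Its separation therefore gives no support to the group.

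The anomaly animals differed in how many of the genes were raised. In M580 and F578 all 10 genes lay above every normal animal, in M610 8, in 18f 7, in M605 and M278 6 each and in M566 3. The matching shares over all genes were not counted, so these counts give no support to the group. In M580 Gp6 stood at 1 step, Gp5 at 2 and Gp1ba at 4, so the place of M580 is uncertain. M580 was the highest of the 7 anomaly animals in 4 genes, F578 and 18f in 2 each, and M610 and M278 in 1 each. The red cell markers moved with this order in part: 6 of 12 were tested, 0 were called with limma in either direction, and their summed level was 8874 CPM in M580 and 8702 CPM in F578, against 374 to 2649 CPM in the other anomaly libraries and 178 to 741 CPM in the normal ones. The hemoglobin gene Hbb-bs, the most abundant of them, had a log2 difference of 1.98 ± 0.92 (SE, limma adjusted p = 0.110). With library totals 3 of the 6 were called higher. M610, with 514 CPM of red cell markers, was high in 8 of the 10 genes and lay within the normal range of red cell markers. No red cell marker in the table was at 0 in all libraries, and the part of trapped or circulating blood in the results was not tested.

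**Figure D4:**
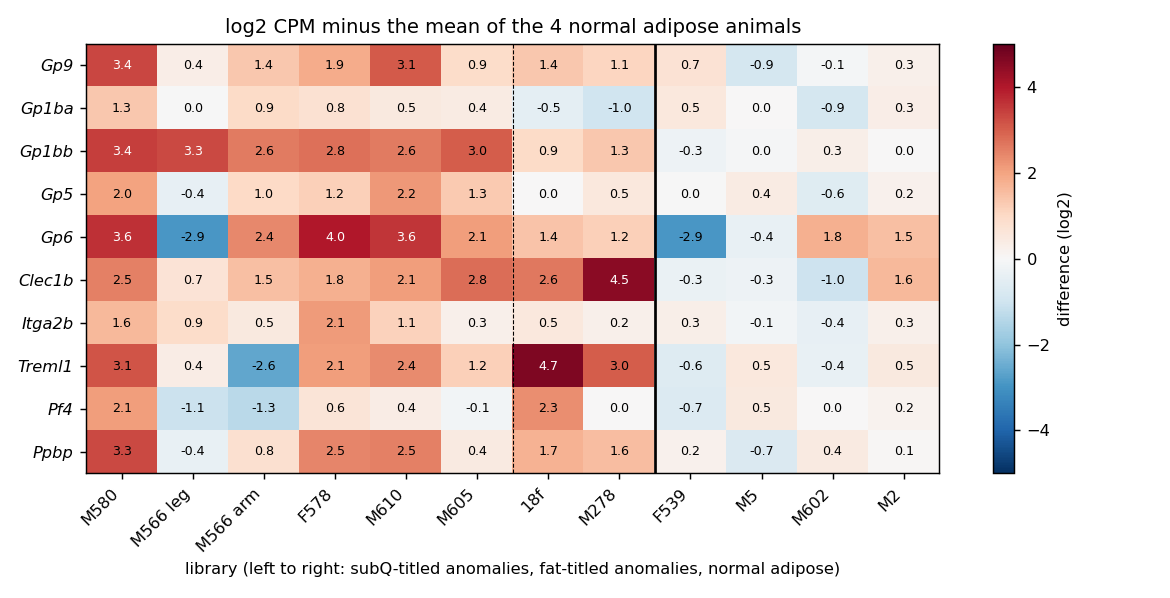
Level of each gene (rows) in each library (columns) minus the mean of the 4 normal animals, in log2 units printed in each cell, with the subQ-titled anomalies left of the dashed line, the fat-titled ones between the lines and the normal libraries right of the solid line. The columns of M580, F578 and M610 are red in all rows, the pieces of M566 are blue in several rows, and Treml1 in 18f (4.7) and Clec1b in M278 (4.5) are the highest cells.

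The leg and arm pieces of M566 show the spread within 1 animal. The pieces lay close for Pf4, at 3.57 and 3.31 log2 CPM, and for Itga2b, at 3.62 and 3.22, and further apart for most other genes. For Ppbp the leg was at 0.14 and the arm at 1.34, and for Clec1b at 0.53 and 1.37. Treml1 went the other way, with 8 reads from the leg and 1 from the arm. The arm held more red cell marker RNA, 1596 CPM against 374 CPM in the leg.

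The second comparison set the 5 subQ-titled against the 2 fat-titled anomaly animals, in 1 limma fit with the normal animals. None of the 10 genes passed: 0 of the 5 tested had an adjusted p under 0.05, and 0 of 10 in the fit with no filter, against 0.0386% of 12955 and 0.15% of 32774 genes in either direction. At an unadjusted p under 0.05 there were 3 of the 10. These were Gp1bb in the fit of tested genes, and Gp1ba and Treml1 in the fit with no filter. Over all genes, 1921 of 12955 tested and 3433 of 32774 with no filter lay under that threshold. Gp1bb was at 2.54 ± 0.32 log2 CPM (mean ± SD, n = 5) in the subQ-titled and a mean of 0.73 in the 2 fat-titled animals, a log2 difference of 1.81 ± 0.34 (SE, limma adjusted p = 0.111). Gp1ba differed by 1.43 ± 0.50 in the same direction (limma adjusted p = 0.378). Treml1 differed the other way, by -2.32 ± 0.96 (limma adjusted p = 0.454), and Clec1b by -1.53 ± 0.75 (limma adjusted p = 0.367). Set against the normal animals alone, the fat-titled anomalies gave 0 calls among the 4 members then tested, against 11.9% of 12735 genes in either direction. An unadjusted p under 0.05 was found for 2 of the 4, and for 3949 of the 12735 genes. The same fit gave a log2 difference of 3.57 for Clec1b (limma adjusted p = 0.0512). Gp1bb was then under the filter, and the fit with no filter gave it 1.14 (limma adjusted p = 0.0775). Since all normal animals are titled fat, a difference of site cannot be told apart from the anomaly in the subQ-titled animals.

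Other genes of platelet formation and activation were described by lists of known genes, with the share of all genes tested that rose (15.3%) and fell (23.2%) and their median log2 fold change (-0.10) as background. For counts with library totals the background was 4618 higher and 1583 lower of 13122 genes, with a median of 0.33. For counts without M580 it was 1949 higher and 2695 lower of 12915 genes, with a median of -0.06. Among 12 regulators of the megakaryocyte lineage 8 were tested, 2 rose and 1 fell. Tal1, a transcription factor of blood and endothelium, rose by 1.44 ± 0.36 (log2, SE, limma adjusted p = 0.0102), and Runx1, a blood transcription factor, by 1.26 ± 0.44. Thpo, the gene of the megakaryocyte growth factor thrombopoietin, fell by 1.65 on the log2 scale, from 2.06 ± 0.57 to 0.41 ± 1.11 log2 CPM (SD, n = 4 and 7 animals). With library totals 4 rose and 0 fell, and without M580 1 rose and 0 fell. The transcription factor genes Gata1, Nfe2 and Gfi1b were under the filter. Gata1 was at -2.26 ± 1.21 log2 CPM in the anomalies and -5.23 ± 2.22 in normal adipose, and Nfe2 at 0.88 ± 1.11 and -0.55 ± 0.75. Gfi1b went the other way, at -2.21 ± 1.57 log2 CPM in the anomalies and -1.79 ± 1.11 in normal adipose.

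The chain of proteins that carries signals from GPVI, CLEC-2 and the integrins rose in most of its members, 11 of 16 tested with 0 lower and a median log2 fold change of 1.49. The adaptor genes Lat and Lcp2 rose by 2.81 ± 0.59 and 2.59 ± 0.45 (log2, SE, limma adjusted p = 0.00459 and 0.00215). Vav1, an exchange factor, rose by 2.29 ± 0.39, and Fcer1g, the signalling partner of GPVI, by 2.06 ± 0.37. These proteins are shared by most white blood cells, and 4 of the 12 macrophage markers above also rose. The part of white blood cells in this list was not tested. The integrin activator gene Rasgrp2, at -0.46 ± 0.34, and talin, Tln1, at 0.22 ± 0.29, did not pass the test. The count was 15 with library totals and 11 without M580.

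Of 12 receptors and enzymes of soluble platelet agonists 11 were tested, 4 rose and 1 fell. The thrombin receptor genes F2rl3 and F2r rose by 3.29 ± 0.79 and 2.56 ± 0.45 (log2, SE), and Tbxa2r, the thromboxane receptor gene, by 1.40 ± 0.45. The list names receptors by their agonist, not by the cell that makes them. F2r was at 6.73 ± 0.83 log2 CPM (mean ± SD) in the anomalies, and the part of cells other than platelets in it was not tested. Ptger3, a prostaglandin E2 receptor gene that fat cells also express, fell by 4.09 on the log2 scale, from 6.87 ± 0.77 to 2.78 ± 1.49 log2 CPM (SD, n = 4 and 7 animals). P2ry12, the ADP receptor gene, had a log2 difference of 1.39 ± 0.51 with a limma adjusted p of 0.0520 and did not pass. With library totals 7 rose and 1 fell.

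Among 14 adhesion partners and other surface proteins 12 were tested, 7 rose and 0 fell, and without M580 6 rose. Itgb3, which pairs with Itga2b in platelets and with the alphaV chain in endothelium and other cells, rose by 3.05 ± 0.57 (log2, SE, limma adjusted p = 0.00285), from 3.61 ± 0.52 to 6.66 ± 1.17 log2 CPM. Treml2, a paralog of Treml1 known from lymphocytes and myeloid cells, rose by 2.93 ± 0.52, Selplg, the ligand of P-selectin, by 1.72 ± 0.37 and the tetraspanin gene Cd9 by 1.61 ± 0.31. Of 20 genes for platelet granules, cytoskeleton and release 19 were tested, 8 rose and 0 fell, with library totals 13 rose, and without M580 7 rose. Bin2 rose by 2.50 ± 0.42, Plek by 2.36 ± 0.49, the coagulation factor V gene F5 by 2.25 ± 0.28 and the release gene Unc13d by 1.89 ± 0.35 on the log2 scale. The most platelet-restricted gene of that list, the beta tubulin gene Tubb1, was under the filter, at 0.89 ± 1.04 log2 CPM in the anomalies and -0.52 ± 0.57 in normal adipose. Vwf, which endothelium also makes, was at 6.94 ± 1.90 and 6.81 ± 0.92 log2 CPM.

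Of 11 ligands for the receptors 8 were tested, 3 rose and 0 fell, with library totals 5 rose, and without M580 1 rose. Pdpn, the gene of the CLEC-2 ligand podoplanin, rose by 1.49 ± 0.43 (log2, SE, limma adjusted p = 0.0198), from 3.23 ± 0.53 to 4.71 ± 0.84 log2 CPM. The fibronectin gene Fn1 rose by 2.20 ± 0.74 and the collagen gene Col1a2 by 1.81 ± 0.64. Pdpn also marks lymphatic endothelium, of which 6 of 8 markers were tested and 3 rose. The lymphatic markers summed to 64.2 to 678 CPM in the anomalies, where the highest was M580 and the next 405 in F578, and 38.1 to 112 CPM in normal adipose. Of 12 endothelial markers, which include Pecam1 of the adhesion list, 5 rose, with sums of 1353 to 6583 and 1572 to 2978 CPM, with library totals 10 rose, and without M580 4 rose. No marker of either list was at 0 in all libraries, and the part of endothelium in these lists was not tested. Of 12 neutrophil markers 5 were tested and Csf3r rose, with sums of 25.9 to 1285 CPM in the anomalies and 25.6 to 535 CPM in normal adipose.

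**Figure D5:**
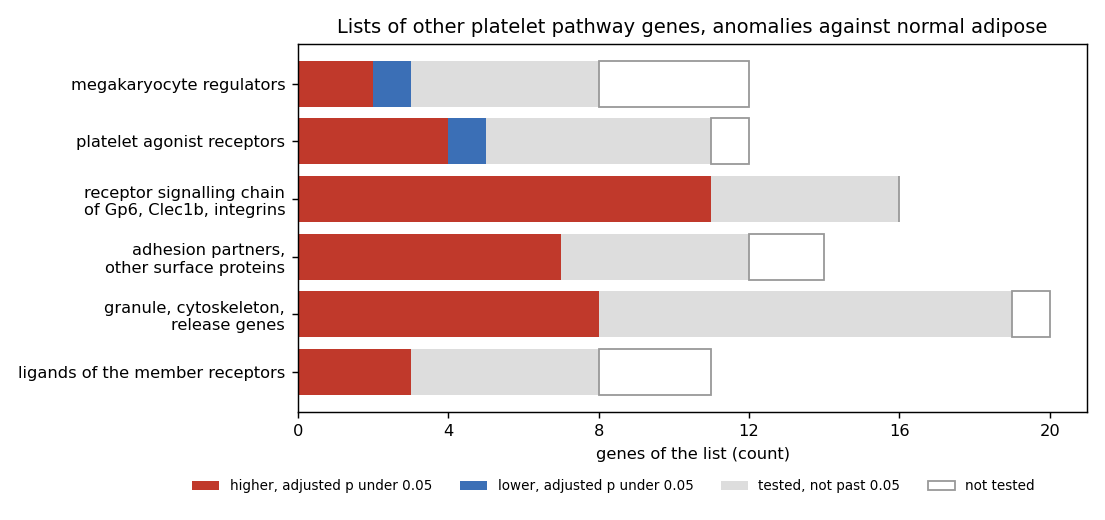
Number of genes (horizontal axis) in each of 6 lists of platelet pathway genes that were higher (red) or lower (blue) in anomalies by limma, tested but not past 0.05 (grey), or not tested (white). The signalling chain holds the most calls, 11 of 16, and the lists of regulators and agonist receptors each hold 1 gene that fell.

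Among the 7 anomaly animals, the tested gene most like Pf4 in level was Hspb7 (Pearson r of 0.975 over 7 animals), followed by Lyve1 (0.962), which marks lymphatic endothelium and some macrophages. The gene most like Clec1b was the phosphatase gene Ptpn6 of blood cells (0.983), and the one most like Ppbp was Stk17b (0.977). Itga2b was most like Loxl4 (0.963), and Gp1bb was most like 5031425E22Rik (0.967). Of the 5 tested genes of the group, none was among the 5 genes most like another, and the other members were under the filter and could not appear. Without M580 only Hspb7, Ptpn6, Lrif1 for Ppbp and Junos for Itga2b remained among the 5 most like genes, and 0 remained for Gp1bb. These coefficients describe a few animals that share their tissue and were the highest among 12955 genes.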

How the data were processed

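Poly-A RNA was sequenced with an unstranded kit, per the labels' protocols. The submitters' processing notes name STAR, limma and the builds mm10 and GRCm38, with no version. The authors deposited log2 values, a normalized log2 CPM with a floor of -6.97, by a function and with a prior that the sources used here do not state. The column of M605 has a control's name in the first header line of the table and an anomaly's in the second and in the labels, and was kept among the anomalies.

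Less the prior, 100% of values lay within 0.1 of a whole multiple of 1 step per library, read here as reads, with composition factors of 0.795 to 1.41. Precision is limited by counting error, which is all that reads without molecular identifiers show: 3 steps were worth 2.23 CPM in M580. limma (version 3.58.1, statmod 1.5.0, R 4.3.3), with a mean trend and robust variances, was fitted, two-sided, to the genes whose average across the 11 animals reached 1 log2 CPM, with Benjamini-Hochberg adjustment over all genes tested and a threshold of 0.05. Other genes were read from a fit of all genes. Its script was tested on simulated data. Exact permutation tests, two-sided, used scipy 1.17.1. A fold change of a low gene depends on the authors' prior. Alternatives were other filters, scalings, priors and variance models, limma-voom on recovered reads, each animal or piece left out, and anomalies of 1 title site. List counts without M580 were added after the data were seen.

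The members and lists were chosen with earlier results of these data known. All members are named, and from each list up to 4 called genes with the largest change, or the 2 most abundant where none was called. Genes of the lists that are named but did not pass, other than the hemoglobin gene, were picked after their values were seen. Coordinates and exon lengths are from GENCODE vM21 (GRCm38).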

Additional observations from a re-analysis of the deposited data

How the results depend on the processing

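The 3 calls among the members were Clec1b, Gp1bb and Ppbp, and over the other settings the count lay between 2 and 4, except with the fat-titled anomalies alone, where it was 0. Leaving out each animal in turn gave 2 to 4. Between subQ-titled and fat-titled anomalies the count was 0 under each alternative run. Clec1b held its call in 23 of 24 alternatives and Gp1bb in 23 of 24, the exception in both being the fat-titled anomalies alone (3.57, limma adjusted p = 0.0512, and 1.14, 0.0775). Ppbp lost its call in 10 of 24, namely limma-voom (log2 1.53, adjusted p = 0.0793), M566 counted as 2 replicates (1.55, 0.0649), its leg piece alone (1.65, 0.0633), subQ-titled anomalies (1.78, 0.0570), fat-titled anomalies (1.64, 0.0634) and 5 of the animals left out (1.61 to 1.88, and 1.500 without M5). Its adjusted p ranged from 0.0117 to 0.0958.

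Itga2b gained a call with library totals, with subQ-titled anomalies (1.17, limma adjusted p = 0.0306) and without M605 (1.05, 0.0467) or M278 (1.06, 0.0441). In the fit with no filter, Gp9 gained a call with library totals (2.21, limma adjusted p = 0.0228), the arm piece alone (1.86, 0.0380), subQ-titled anomalies (2.01, 0.0485) and without M566 (1.94, 0.0422) or F539 (2.02, 0.0470). Treml1 gained one with library totals (2.62, 0.0436), the leg piece alone (2.41, 0.0356), without M566 (2.75, 0.0102) and without M566 and M580 together (2.68, 0.0264). No called value changed sign. The cause of these changes was not tested. Gp1bb fell under the filter with median-ratio scaling, with the fat-titled anomalies alone, and without M580, M566, both of these, or M605. In these settings Gp1bb was read from the fit with no filter.

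Depth limits Gp6, Gp5 and Gp9 in particular. No paired analysis was possible because the anomaly and normal libraries came from different animals.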
